A study of Mus musculus with 29 samples.

Results

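The 6 genes for the chains of type IV collagen, Col4a1 to Col4a6, were followed through the last embryonic days and the first 4 weeks after birth in the alveolar septa of the mouse lung. They were found by their NCBI gene IDs (12826, 12827, 12828, 12829, 12830 and 94216) among 22779 gene IDs of the deposited table. All animals were wild type C57BL/6 mice of both sexes, born to females bought timed-pregnant, and no treatment is given. Septal regions were laser-captured from frozen sections with wide cuts that avoided large vessels and bronchi, so each library mixes the epithelial, endothelial and mesenchymal cells of the septum. Each of the 29 libraries is labelled with 1 embryo or pup, with 2 animals at each of 14 ages and 1 at P28. E is the embryonic day and P the postnatal day. The prenatal group held 4 embryos, of E16.5 and of E18.5. From birth to P2.5 came the postnatal saccular group, 8 pups (4 ages: P0.5 and P1, then P1.5 and P2.5). The 8 pups aged P4 or P5 and P7 or P10 formed the early alveolar group. The 9 oldest pups, aged P13.5 or P15, P19 or P23, and P28, formed the late alveolar group. The p-values of the stage comparisons rest on the spread between animals of a stage group, which includes differences between its ages. Those of E18.5 against E16.5 rest on the spread between animals of the same age, pooled over ages. Values are FPKM, read fragments scaled to transcript length and to the mapped reads of the library, so that levels of different genes can be set side by side.

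Type IV collagen is the sheet-forming collagen of basement membranes, the thin matrix on which epithelium and endothelium rest. Its chains wind into triple helices of fixed makeup: the α1 chain with α2, made in nearly all basement membranes, the α3, α4 and α5 chains together, made in few organs, and α5 with α6. In the lung the α3α4α5 network lies in the fused basement membrane between alveolar epithelium and capillary, and in the kidney the loss of any of its chains causes Alport syndrome.

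The genes lie head to head in pairs, each pair reading outward from 1 short region. In GRCm38 (GENCODE M21), Col4a1 spans chromosome 8 from 11198423 to 11312826 on the minus strand, and Col4a2 starts at 11312805 on the plus strand and ends at 11449287. Their annotated first exons overlap by 22 bases. Col4a4 (chromosome 1, 82448423 to 82586849, minus strand) and Col4a3 (82586921 to 82722059, plus strand) start 71 bases apart. Col4a6 (chromosome X, 141165403 to 141474076, minus strand) and Col4a5 (141475385 to 141689234, plus strand) are separated by 1308 bases. Reads within the short overlap of Col4a1 and Col4a2 could be given to either gene, as the strand setting of the quantification is not given in the sources used here.

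The start regions of Col4a1 with Col4a2 and of Col4a3 with Col4a4 are shown here. These pairs were picked because their levels correlated across the libraries. Any part of the sequences in this was not tested. The sequences are RefSeq windows of GRCm38.p6, written 5′ to 3′ along the strand of the named gene, each of 300 bases from upstream of the annotated start into the first exon. Capitals mark matches, on either strand, to 4 motifs. The GC box was searched as GGGCGG. A further motif was CCAAT, and the TATA box was taken as TATAAA. The CT-rich element known from collagen promoters was searched as CCCTCCCC. The Col4a1 window is chr8:11312777-11313076 on the minus strand, the Col4a2 window chr8:11312555-11312854 on the plus strand, and the Col4a4 window chr1:82586800-82587099 on the minus strand.
Col4a1: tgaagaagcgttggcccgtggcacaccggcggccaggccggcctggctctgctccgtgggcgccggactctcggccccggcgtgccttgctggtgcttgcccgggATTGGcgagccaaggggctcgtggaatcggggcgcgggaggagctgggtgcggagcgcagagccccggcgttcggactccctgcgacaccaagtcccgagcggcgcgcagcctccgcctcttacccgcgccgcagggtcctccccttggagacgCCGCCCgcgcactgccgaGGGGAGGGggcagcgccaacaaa
Col4a2: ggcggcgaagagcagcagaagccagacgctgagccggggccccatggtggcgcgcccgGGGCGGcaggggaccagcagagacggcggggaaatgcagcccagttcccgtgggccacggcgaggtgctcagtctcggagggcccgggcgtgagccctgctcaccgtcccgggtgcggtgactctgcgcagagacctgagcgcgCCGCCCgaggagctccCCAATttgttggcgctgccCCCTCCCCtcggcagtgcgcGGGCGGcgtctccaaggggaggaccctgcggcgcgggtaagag
Col4a4: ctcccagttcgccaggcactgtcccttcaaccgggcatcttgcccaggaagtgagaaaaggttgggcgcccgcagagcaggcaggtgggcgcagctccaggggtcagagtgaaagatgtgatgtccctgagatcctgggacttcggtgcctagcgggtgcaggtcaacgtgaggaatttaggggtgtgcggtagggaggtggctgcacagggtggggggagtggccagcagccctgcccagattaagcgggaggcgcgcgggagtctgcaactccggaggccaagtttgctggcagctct

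The Col4a1 and Col4a2 windows share 78 bases, read in opposite directions. Within them stand a GC box (chr8:11312812-11312817) and a CT-rich element (chr8:11312792-11312799), which lie at bases 260 and 278 of the Col4a1 window and at bases 258 and 238 of the Col4a2 window. Both windows are rich in G and C, at 74% and 73.7%, against a median of 52.7% and a 90th percentile of 69.7% over 32851 windows of the same length. They hold 37 and 33 CG dinucleotides, against a median of 7. The Col4a4 window, in which the Col4a3 start falls at base 179, is 63.3% G and C with 14 CG dinucleotides and holds none of the 4 motifs. No match says only that these letters are not in that window. The Col4a5 window has 52.7% G and C and 11 CG dinucleotides, and the Col4a6 window 48.3% and 3. The Col4a5 window holds a CCAAT box and a CT-rich element that shares 1 base with a GC box, and the Col4a6 window holds 1 GC box. A match is common: the GC box is in 35.7% of all windows, CCAAT in 37.4%, TATAAA in 13.6% and CCCTCCCC in 10.8%. TATAAA was found in none of the 5 windows. Col4a3 had no window of its own.

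The libraries had FPKM totals of 318176 to 457706, and 10114 to 13059 genes reached an FPKM of 1. Read depth is unknown, so precision is judged from the spread between animals. Of 8621 commonly expressed coding genes, 416 are listed at 0 in P10 pup a, 577 in P19 pup d and 242 in P19 pup f, and such a 0 can be a failed estimate. None of the 6 collagen genes was at 0 in any library, and no call of a collagen gene was lost without these 3 libraries together. Septal cell markers were present in every library: none of 7 alveolar type 1 and 6 endothelial markers was at 0. The E16.5 libraries also held heart muscle genes (Myh6, Tnnt2 and Actc1), which summed to 922 and 1704 FPKM there, against 31.1 and 92.9 FPKM at E18.5 and 6.34 to 361 FPKM after birth.

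In order of level, the α1 and α2 genes exceeded the other 4 in every library. Col4a1 took from 55.2% to 69.3% of the summed FPKM of the 6 genes and Col4a2 from 15.9% to 26.8%. Together the 6 genes rose from 258 and 361 FPKM in the E16.5 embryos to a median of 694 in the postnatal saccular group, and lay at a median of 786 in the late alveolar group. The share of Col4a3 was 0.700% and 0.951% at E16.5 and reached 8.58% in P1 pup d. Col4a6 held the smallest share in every postnatal library, at 0.165% to 0.836%, and 2.90% and 2.75% at E16.5. All 6 genes passed the filter for testing (FPKM of 1 or more in 4 or more libraries), and their lowest value in any library was 1.18 FPKM, for Col4a6 in P15 pup c. Between the animals of an age, the SD on the log2(FPKM + 1) scale was 0.19 for Col4a1, 0.26 for Col4a2, 0.21 for Col4a3, 0.25 for Col4a4, 0.24 for Col4a5 and 0.49 for Col4a6, with a median of 0.52 over 14616 genes.

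**Figure D1:**
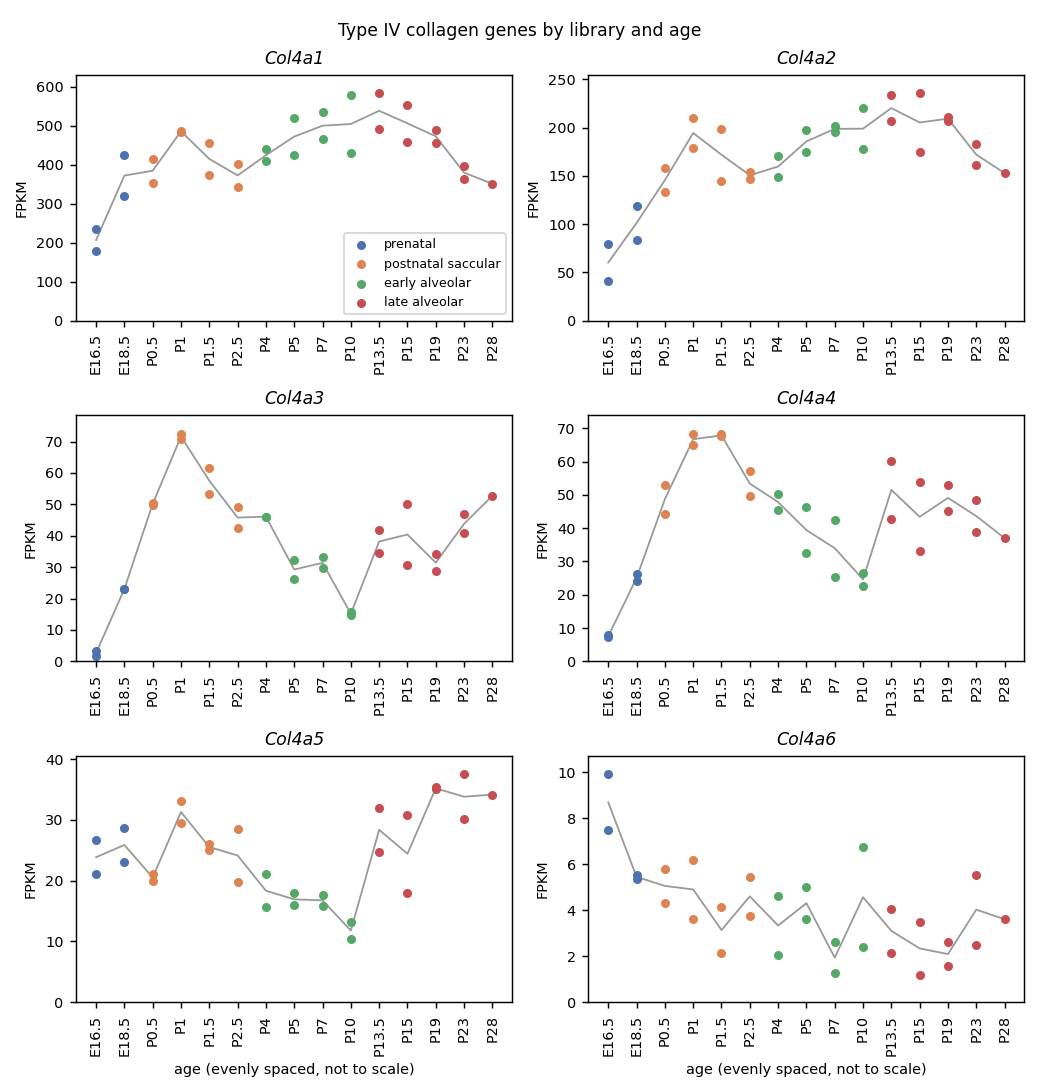
FPKM of the 6 type IV collagen genes (vertical axes, starting at 0) at 15 ages (horizontal axes, evenly spaced), with a point for each library coloured by stage group and a line through the age means. Col4a3 and Col4a4 climb from E16.5 to P1 or P1.5, sink to P10 and are higher again at P13.5, while Col4a1 and Col4a2 have no such trough at P10.

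Col4a1, the gene for the chain present in nearly all basement membranes, was 178 and 234 FPKM in the E16.5 embryos and 319 and 425 FPKM in the E18.5 embryos. Its lowest, median and highest levels were 344, 408 and 487 FPKM in the postnatal saccular group, 409, 453 and 578 in the early alveolar group and 351, 458 and 584 in the late alveolar group. The age means were highest at P13.5 (538 FPKM) and lowest at E16.5 (206 FPKM), 2.61-fold apart. Only 3 of the 8 postnatal saccular animals exceeded every prenatal animal. In the order of age means, neighbouring ages overlapped in 13 of 14 places, so that the order after birth is loose.

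Col4a2, which encodes the partner of α1 in the common triple helix, was 40.9 and 79.3 FPKM at E16.5 and 83.5 and 119 FPKM at E18.5. It had a lowest, median and highest level of 133, 156 and 210 FPKM in the postnatal saccular group, 149, 187 and 220 in the early alveolar group, and 153, 206 and 236 in the late alveolar group. Every postnatal animal was above every prenatal one, as for 1.79% of all genes tested. The mean of P13.5 (220 FPKM) was 3.66-fold that of E16.5 (60.1 FPKM). Neighbours in the order of age means overlapped in 12 of 14 places.

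The ratio of Col4a1 to Col4a2 was not constant. It was 4.36 and 2.95 at E16.5 and 3.82 and 3.58 at E18.5, and fell to 2.66 and 2.62 at P0.5. After birth it kept within 2.30 to 2.72 in the postnatal saccular group, 2.38 to 2.74 in the early alveolar group and 2.16 to 2.63 in the late alveolar group. Means were 3.68 ± 0.58 (SD, n = 4) before birth and 2.52 ± 0.17 (SD, n = 8), 2.56 ± 0.13 (SD, n = 8) and 2.34 ± 0.15 (SD, n = 9) after it. No postnatal library reached the lowest prenatal ratio.

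Col4a3 had the widest range of the 6. It was 1.80 and 3.43 FPKM at E16.5, 23.2 and 22.9 at E18.5, 50.4 and 49.9 at P0.5, and 72.5 and 70.6 at P1. The P1 mean was 27.4-fold that of E16.5 and 3.11-fold that of E18.5. These 4 ages do not overlap. From P1 the level sank to 61.7 and 53.4 FPKM at P1.5, 49.0 and 42.5 at P2.5, 46.1 and 46.0 at P4, 26.3 and 32.1 at P5, 33.1 and 29.6 at P7, and 14.6 and 15.7 at P10, a mean 0.212 times that of P1. It stood at 34.4 and 41.9 FPKM at P13.5, 2.52-fold the P10 mean, at 28.7 and 34.1 at P19, and at 52.7 in the P28 pup. Animals of consecutive ages did not overlap at 10 of 14 steps, more than for any other member. With 2 animals at an age and 1 at P28, such separation is frequent by chance. Its share over all genes was not computed, so the count is only a description.

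Col4a4, whose product pairs with α3 and α5, had a like outline up to P13.5, with a smaller amplitude. It was 7.78 and 7.25 FPKM at E16.5, 24.0 and 26.1 at E18.5, 53.0 and 44.4 at P0.5, 68.4 and 65.0 at P1, and 68.2 and 67.5 at P1.5. It sank to 26.5 and 22.7 FPKM at P10 and was 60.3 and 42.7 at P13.5. It was 33.1 and 53.7 FPKM at P15, 53.1 and 45.1 at P19, 38.9 and 48.4 at P23, and 37.0 in the P28 pup. From P19 on the age means went opposite ways, at 31.4, 43.8 and 52.7 FPKM for Col4a3 and 49.1, 43.6 and 37.0 for Col4a4. Both P19 pups are libraries rich in zeros, and the last age has 1 animal. The Col4a4 levels of P19 and P23 overlap, so that its decline rests on the P28 pup. The highest age mean (P1.5) was 9.03-fold the lowest (E16.5). The ratio of Col4a3 to Col4a4 was 0.232 and 0.473 at E16.5, 0.966 and 0.877 at E18.5, 0.791 to 1.12 in the postnatal saccular group, 0.552 and 0.690 at P10, and 1.42 in the P28 pup.

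Col4a5, the chain common to both rarer helices, was already near its later level at E16.5, at 21.1 and 26.6 FPKM, and was 28.8 and 23.0 at E18.5. The lowest, median and highest levels were 19.8, 25.5 and 33.1 FPKM in the postnatal saccular group, 10.3, 15.9 and 21.0 in the early alveolar group, and 18.02, 32.0 and 37.5 in the late alveolar group. Its low point was P10, at 10.3 and 13.2 FPKM. It was 24.7 and 32.0 FPKM at P13.5 and 35.4 and 35.0 at P19. In 7 of 8 early alveolar animals it lay below every postnatal saccular animal, and in 8 of 9 late alveolar animals above every early alveolar one. The share of all genes with such a separation was not computed, so these counts are only a description.

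The 3 chains of the α3α4α5 helix did not keep a fixed proportion. Col4a5 was 4.40 and 4.99 times the mean of Col4a3 and Col4a4 at E16.5 and 1.22 and 0.939 times at E18.5. It was 0.387 to 0.538 times that mean in the postnatal saccular group, 0.326 to 0.690 times in the early alveolar group and 0.523 to 0.884 times in the late alveolar group. Col4a5 was thus the most abundant of the 3 transcripts at E16.5 and lay below the mean of the other two in every postnatal library.

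Col4a6 was low throughout. It was highest at E16.5, at 7.47 and 9.90 FPKM, and 5.36 and 5.53 at E18.5. The lowest, median and highest levels were 2.12, 4.23 and 6.17 FPKM in the postnatal saccular group, 1.25, 3.12 and 6.74 in the early alveolar group, and 1.18, 2.61 and 5.54 in the late alveolar group. Neighbouring ages overlapped in 13 of 14 places of the order, and P10 pup a, one of the libraries rich in zeros, gave the highest postnatal value. The ratio of Col4a5 to Col4a6 ran from 2.69 to 5.36 before birth and from 6.77 to 22.6 in the late alveolar group.

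Col4a5 and Col4a6 are on the X chromosome, and the late alveolar group held 7 females and 2 males where the earlier groups held equal numbers. At 8 ages with 1 animal of each sex, Col4a5 was higher in the female at 5 and Col4a6 at 4. With sex as a covariate, added after the data were seen, none of the 24 stage comparisons of the 6 genes changed its call.

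Stage groups were compared in 1 limma fit across 14616 genes on log2(FPKM + 1), with p adjusted by the Benjamini-Hochberg method. Fold changes on this scale slightly understate the change of low values. The first question was how the genes differ across birth. Against the prenatal group, 4 of the 6 genes were higher in the postnatal saccular group and 0 were lower, while 9.11% of all genes tested were called higher and 6.81% lower. The log2 fold change was 2.62 ± 0.39 (SE) for Col4a3 (adjusted p = 3.22e-05 by limma), 2.00 ± 0.26 for Col4a4 (adjusted p = 6.7e-06), 1.11 ± 0.19 for Col4a2 (adjusted p = 0.000136) and 0.58 ± 0.19 for Col4a1 (adjusted p = 0.0346). Col4a5 (0.02 ± 0.18, adjusted p = 0.966) and Col4a6 (-0.58 ± 0.32, adjusted p = 0.235) did not pass. All 8 postnatal saccular libraries lay above all 4 prenatal ones for Col4a2, Col4a3 and Col4a4, as for 5.55% of all genes tested. The Col4a1 call was lost without any one of E16.5 embryos 9 and 2, P1 pups d and e and P1.5 pup e, and when the prenatal group was reduced to E18.5 Col4a1 was 0.16 (adjusted p = 0.737), while Col4a2 (0.71, adjusted p = 0.0234), Col4a3 (1.23, adjusted p = 0.0158) and Col4a4 (1.19, adjusted p = 0.00507) stayed called, where 5.81% of all genes were called in either direction. It was also lost with median ratio scaling (adjusted p = 0.0547), with array quality weights (0.0505) and with the 2 groups fitted alone (0.0911).

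The canalicular and early saccular ages that make up the prenatal group differed from each other. In a limma fit of 15 age groups, 3 of the 6 genes were higher at E18.5 than at E16.5 and 0 were lower, with 2.52% of all genes higher and 2% lower. Col4a3 changed most (2.77 ± 0.24, adjusted p = 6.38e-07), then Col4a4 (1.61 ± 0.26, adjusted p = 0.0011) and Col4a1 (0.85 ± 0.23, adjusted p = 0.0432). Col4a2 (0.79 ± 0.26, adjusted p = 0.101), Col4a5 (0.11 ± 0.27, adjusted p = 0.904) and Col4a6 (-0.58 ± 0.54, adjusted p = 0.67) did not pass. Col4a2 passed without E16.5 embryo 2 (1.26, adjusted p = 0.0208). The call of Col4a1 was lost with quantile normalization (adjusted p = 0.126), with the sum of its lines in the table (0.0518), and without each of the 4 prenatal libraries (0.0692 to 0.277). It was also lost without any one of 12 postnatal libraries (P1 pups d and e, P2.5 pups h and i, all pups of P4, P5 and P7, and P23 pups e and f, adjusted p = 0.0521 to 0.0578). Each age has 2 animals, and the heart muscle genes were high in the E16.5 libraries of this comparison. Their part in it was not tested.

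Between the postnatal saccular and the early alveolar group, 1 of the 6 genes was called lower and 0 higher, against 0.937% of all genes lower and 0.527% higher. Col4a5 decreased by 0.64 ± 0.15 on the log2 scale (limma, adjusted p = 0.0252). The call was lost without any one of P1 pups d and e, P1.5 pup e, P2.5 pup h and P10 pups a and f, with an adjusted p of 0.0501 to 0.0648. Col4a3 (-0.94 ± 0.32, adjusted p = 0.143) and Col4a4 (-0.72 ± 0.21, adjusted p = 0.0851) had larger differences between group means, with larger SE, and did not pass. Among the early alveolar animals Col4a3 ran from 14.6 FPKM (P10 pup a) to 46.1 (P4 pup a), and Col4a4 from 22.7 (P10 pup f) to 50.3 (P4 pup e). With a spread taken within the 15 ages, both passed (adjusted p = 0.000544 and 0.00439), as they did with the 2 groups alone (0.0218 and 0.0248), and Col4a4 passed with array quality weights (0.045). Col4a1 (0.20 ± 0.15, adjusted p = 0.641), Col4a2 (0.17 ± 0.15, adjusted p = 0.699) and Col4a6 (-0.32 ± 0.26, adjusted p = 0.667) did not pass.

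Between the early and late alveolar groups, 1 of the 6 genes was higher and 0 were lower, with 3.89% of all genes higher and 7.47% lower. Col4a5 rose by 0.91 ± 0.15 on the log2 scale (limma, adjusted p = 8.98e-05), and this call was kept in every alternative. Col4a3 (0.46 ± 0.31, adjusted p = 0.39) and Col4a4 (0.35 ± 0.21, adjusted p = 0.304) did not pass. Col4a3 passed in the fit of 15 age groups (0.50, adjusted p = 0.00711). Col4a1 (-0.05 ± 0.15, adjusted p = 0.871), Col4a2 (0.07 ± 0.15, adjusted p = 0.816) and Col4a6 (-0.16 ± 0.25, adjusted p = 0.748) did not pass.

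Over the whole course, 4 of the 6 genes were higher in the late alveolar than in the prenatal group and 1 was lower, while 12.7% of all genes were higher and 18.3% lower, and the median change over all genes was -0.16. This comparison shares its groups with those above. The log2 fold change was 2.13 ± 0.38 for Col4a3 (limma, adjusted p = 9.54e-05), 1.63 ± 0.26 for Col4a4 (adjusted p = 1.79e-05), 1.35 ± 0.18 for Col4a2 (adjusted p = 1.91e-06) and 0.72 ± 0.19 for Col4a1 (adjusted p = 0.00345). Col4a6 decreased by 1.06 ± 0.31 (adjusted p = 0.0102) and Col4a5 did not pass (0.28 ± 0.18, adjusted p = 0.244). When the prenatal group was reduced to E18.5, only Col4a2 (0.96, adjusted p = 0.000943) and Col4a4 (0.82, adjusted p = 0.0245) stayed called, and Col4a1 (0.30, adjusted p = 0.351), Col4a3 (0.74, adjusted p = 0.103) and Col4a6 (-0.78, adjusted p = 0.22) did not, where 14.5% of all genes were called in either direction. The Col4a6 call was also lost without E16.5 embryo 2 (-0.91, adjusted p = 0.0559).

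**Figure D2:**
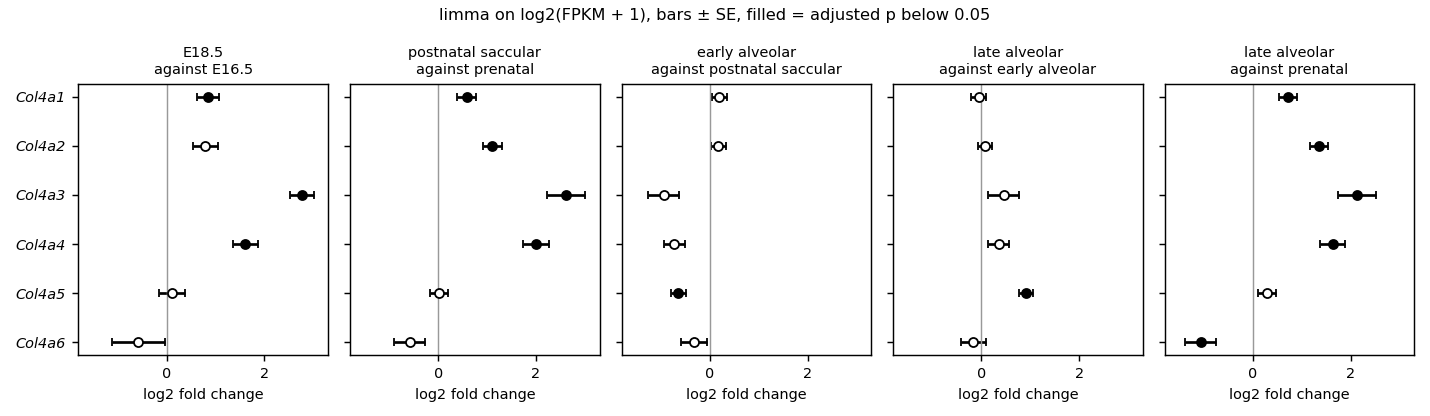
Log2 fold changes (horizontal axes) of the 6 genes (vertical axis) in 5 comparisons by limma on log2(FPKM + 1), with bars of 1 SE. Filled points have an adjusted p under 0.05. Col4a3 and Col4a4 have the largest changes across birth (2.62 and 2.00), and Col4a5 is the gene called in both alveolar comparisons.

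With age taken as a series, limma's F test of a smooth curve called all 6 genes, where 30.7% of all genes were called. The fitted curve spanned 3.86 on the log2 scale for Col4a3 (adjusted p = 3.4e-06), 2.45 for Col4a4 (6.85e-05), 1.71 for Col4a2 (2.89e-06), 1.32 for Col4a6 (0.0249), 1.31 for Col4a5 (0.00981) and 1.13 for Col4a1 (0.000329). In the 25 postnatal libraries alone, 2 of the 6 were called, where 15.3% of all genes were called. They were Col4a3 (span 1.25, adjusted p = 0.00274) and Col4a5 (1.24, adjusted p = 0.00657). Col4a4 (0.87, adjusted p = 0.0504), Col4a2 (0.50, adjusted p = 0.0701), Col4a1 (0.66, adjusted p = 0.084) and Col4a6 (0.63, adjusted p = 0.494) were not. The call of Col4a6 over all ages was lost without E16.5 embryo 9 (adjusted p = 0.0665) or embryo 2 (0.113) and with quantile normalization (0.0586).

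The ratio of the summed Col4a3, Col4a4 and Col4a5 FPKM to the summed Col4a1 and Col4a2 FPKM compares the transcripts of the specialised network with those of the common one. It is given as a description, without a test. It was 0.140 and 0.119 in the E16.5 embryos and 0.189 and 0.132 in the E18.5 embryos. In the postnatal saccular group its lowest, median and highest values were 0.201, 0.240 and 0.284, and all 8 animals were above all 4 prenatal ones. The early alveolar group had 0.0645, 0.117 and 0.202, and the late alveolar group 0.129, 0.170 and 0.246. Group means were 0.145 ± 0.030 (SD, n = 4), 0.243 ± 0.024 (SD, n = 8), 0.129 ± 0.048 (SD, n = 8) and 0.182 ± 0.039 (SD, n = 9).

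By age the ratio was highest at P1.5, with a mean of 0.260, and lowest at P10, with 0.0645 and 0.0850. The P1.5 mean was 3.48-fold the P10 mean. With Col4a5 left out of the sum the lowest age was E16.5, at 0.0341 and 0.0437 against 0.0516 and 0.0632 at P10, and the prenatal mean was 0.0713 ± 0.0392 (SD, n = 4). Between P1.5 and P10 the ratio with all 3 chains stepped down from 0.243 and 0.228 at P2.5 to 0.202 and 0.184 at P4. It was 0.107 and 0.158 at P5, with no overlap at either step. After P10 it was 0.146 and 0.167 at P13.5, 0.129 and 0.170 at P15 and 0.176 and 0.164 at P19. It reached 0.209 and 0.229 at P23 and 0.246 in the single P28 pup, within the range of the postnatal saccular group. The lower P10 value is that of pup a, a library rich in zeros, as are both P19 pups. The sum of Col4a1 and Col4a2 in the P10 pups was 798 and 608 FPKM, within or above the postnatal saccular range of 487 to 694, while the sum of the other 3 chains was 51.5 and 51.6 FPKM against 112 to 174. Between P13.5 and P28 it was the sum of Col4a1 and Col4a2 that differed more, at 818 and 698 FPKM against 504, while the sum of the other 3 was 119 and 117 FPKM against 124.

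**Figure D3:**
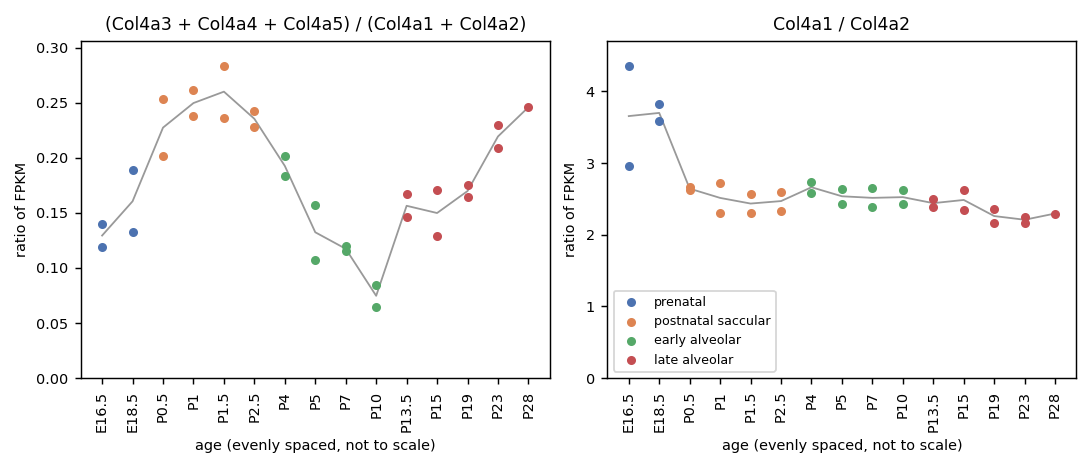
Ratios of FPKM (vertical axes, starting at 0) by age (horizontal axes, evenly spaced) for each library, with lines through the age means. Left, the ratio of Col4a3, Col4a4 and Col4a5 to Col4a1 and Col4a2 is highest at P1.5 (mean 0.260) and lowest at P10 (0.0645 and 0.0850). Right, the ratio of Col4a1 to Col4a2 is 2.95 to 4.36 before birth and 2.16 to 2.74 after it.

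The levels of the members across the 29 libraries were compared pair by pair, in 15 pairs, on log2(FPKM + 1). Libraries share the scaling to mapped reads. Among the head-to-head pairs, Col4a1 and Col4a2 had Pearson r = 0.934 and Spearman rho = 0.891 (both permutation p = 1e-05, the smallest that 100000 permutations can give, adjusted p = 7.5e-05). Without the 2 libraries farthest from the Col4a1 median r was 0.83, it was 0.922 for deviations from the stage means, and 0.86 for deviations from the age means. Col4a3 and Col4a4 had r = 0.933 and rho = 0.803 (both permutation p = 1e-05, adjusted p = 7.5e-05), with r = 0.81 without the 2 farthest libraries, 0.81 within stages and 0.219 within ages. Col4a1 and Col4a2 thus differed in step also between animals of the same age, and Col4a3 and Col4a4 hardly did so. Within ages Col4a3 had a higher r with each other member than with Col4a4. It was 0.698 with Col4a5, 0.58 with Col4a2, 0.538 with Col4a6 and 0.327 with Col4a1.

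Col4a5 and Col4a6 had r = 0.0759 (permutation p = 0.696, adjusted p = 0.746) and rho = 0.0926 (permutation p = 0.634, adjusted p = 0.732), and r = 0.174 without the 2 libraries farthest from the Col4a5 median. For Col4a1 and Col4a2 with Col4a3 and Col4a4, the positive r over all libraries rested on the prenatal ones, as it was negative after birth. Within ages r for these pairs was 0.217 to 0.58. Col4a1 with Col4a3 had r = 0.611 (permutation p = 0.00289, adjusted p = 0.00649) but rho = 0.0167 (permutation p = 0.931, adjusted p = 0.931), r = -0.19 without the 2 farthest libraries and r = -0.349 in the 25 postnatal libraries. Col4a2 with Col4a4 had r = 0.722 (permutation p = 0.00042, adjusted p = 0.0021), rho = 0.345 (permutation p = 0.0655, adjusted p = 0.177), r = 0.297 without the 2 farthest and r = -0.0716 after birth. Col4a3 with Col4a5, partners in 1 helix but not neighbours in the genome, had r = 0.288 (permutation p = 0.129, adjusted p = 0.176), rho = 0.385 (permutation p = 0.0404, adjusted p = 0.159) and r = 0.564 without the 2 farthest, and r = 0.64 in the postnatal libraries.

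**Figure D4:**
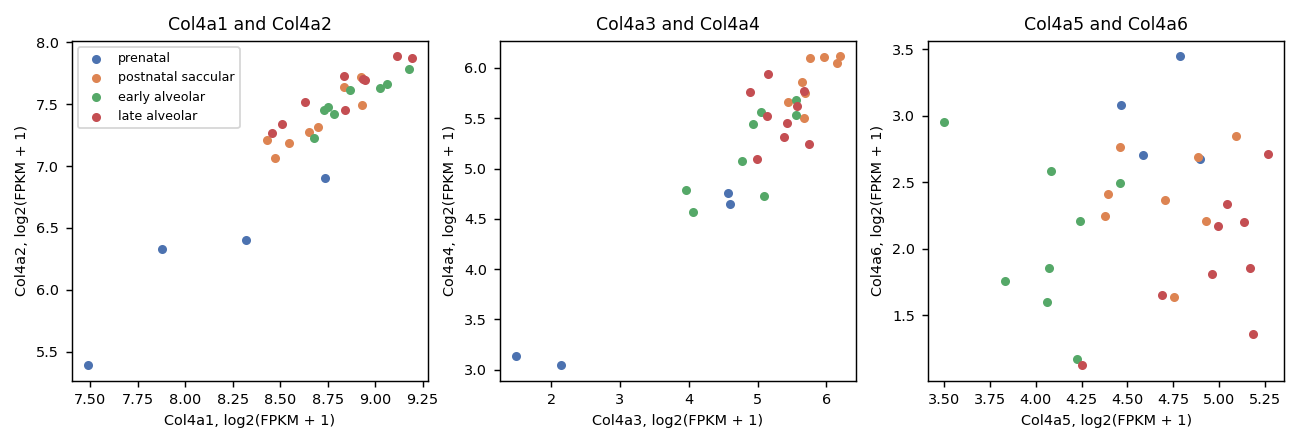
Levels of the partners of each head-to-head gene pair on log2(FPKM + 1) axes, with a point for each of the 29 libraries coloured by stage group. Points of Col4a1 with Col4a2 (r = 0.934) and of Col4a3 with Col4a4 (r = 0.933) lie along a line, with the E16.5 libraries at its low end, and those of Col4a5 with Col4a6 (r = 0.0759) do not.

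Genes whose levels over the 29 libraries were most like each member were ranked by Pearson r among about the 9016 tested genes with a mean of at least 5 FPKM. For Col4a1 they were Col4a2 (r = 0.934), Septin4 (0.874) and Cdh5 (0.858), the cadherin of endothelial junctions. For Col4a2 they were Col4a1, Cdh5 (0.926) and App (0.916), the amyloid precursor protein. Ager, a receptor and the classic marker of alveolar type 1 cells, ranked first for both Col4a3 (0.956) and Col4a4 (0.948), with Spock2 (0.921 and 0.935), a secreted proteoglycan, and the partner chain (0.933) beside it. For Col4a5 they were Abca8a (0.785), Gbe1 (0.767), the glycogen branching enzyme, and Sft2d2 (0.765), and for Col4a6 they were Ipo5 (0.77), a nuclear import receptor, Bex1 (0.77) and Mlf1 (0.738). Col4a5 stood at rank 4346 for Col4a6. These rankings are a description and say nothing of shared control.

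The summed level of markers of alveolar type 1 cells, the thin epithelial cells of the gas exchange surface, had an outline like that of Col4a3 and Col4a4. The summed FPKM of the 7 markers was 140 and 160 at E16.5, 914 and 933 at E18.5 and 1636 and 1664 at P1. It was 421 and 445 at P10 and 865 and 943 at P13.5, so that it too had its postnatal low at P10. Of the 7 markers Ager was the largest, with a postnatal saccular median of 536 FPKM against 1166 FPKM for the sum. Not all shared the outline: Hopx had medians of 71.5, 67.6, 44.0 and 60.6 FPKM in the 4 groups in order of age. By limma 6 of the 7 were higher at E18.5 than at E16.5 and 0 lower, with a median log2 fold change of 2.70, 4 were higher and 0 lower across birth (median 1.31), 0 were called in either direction in the early alveolar group (median -0.96), and 1 rose and 0 fell at the late alveolar stage (median 0.52). The medians over all genes in these comparisons were -0.10, 0.00, -0.03 and -0.09. Of all genes 2.52%, 9.11%, 0.527% and 3.89% were called higher in them, and 2%, 6.81%, 0.937% and 7.47% lower. From prenatal to late alveolar 3 of the 7 markers were higher and 0 lower, where 12.7% of all genes were higher and 18.3% lower. Markers of alveolar type 2 cells, the surfactant makers, moved in the same comparisons. The sum of 6 of them was 2209 and 5412 FPKM at E16.5, 14070 and 17200 at E18.5, 6095 and 10230 at P10 and 7744 and 9449 at P13.5. Sftpc made up most of this sum. In the postnatal saccular group its median was 13230 FPKM, and that of the sum was 14700 FPKM. By limma 5 of the 6 were higher at E18.5, 4 across birth and 0 in the late alveolar group, and 1, Abca3, was lower in the early alveolar group. The prenatal group of the comparison across birth includes E16.5. At P0.5 the type 1 sum was 942 and 1116 FPKM and the type 2 sum 11990 and 16670 FPKM. Both were nearer to their E18.5 than to their E16.5 values. In bulk tissue fewer cells of a type and less RNA per cell cannot be told apart, and the part of either cell type in the collagen values was not tested.

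Endothelial markers were, like Col4a1 and Col4a2, lowest at E16.5, but parted from them after P13.5. The 6 markers summed to 296 and 345 FPKM at E16.5, 639 and 713 at E18.5, 629 to 1018 in the postnatal saccular group, 702 to 985 in the early alveolar group and 701 to 1063 in the late alveolar group. The P0.5 pups had 670.5 and 699.5 FPKM, near E18.5, and the prenatal group of the comparison across birth includes E16.5. By limma 4 of the 6 were higher at E18.5, 4 across birth, 0 in the early alveolar group and 1 among late alveolar animals, and 0 were lower in each. The shares of all genes called are those given beside the type 1 markers. From P13.5 to P23 the median sum of the markers went from 894 to 999 FPKM, while the mean sum of Col4a1 and Col4a2 went from 758 to 551 FPKM, and the P28 pup had 979 and 504 FPKM. The 5 markers of smooth muscle and myofibroblasts, in contrast, were all lower at the late than at the early alveolar stage (median -0.93), where no collagen member was lower. The 4 pericyte markers summed to 115 and 149 FPKM at P10, 88.6 and 103 at P13.5, 81.8 and 85.3 at P23 and 52.3 in the P28 pup. From early to late alveolar 1 of the 4 was lower and 0 were higher, where 7.47% and 3.89% of all genes were. The part of any of these cell types in the collagen values was not tested.

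**Figure D5:**
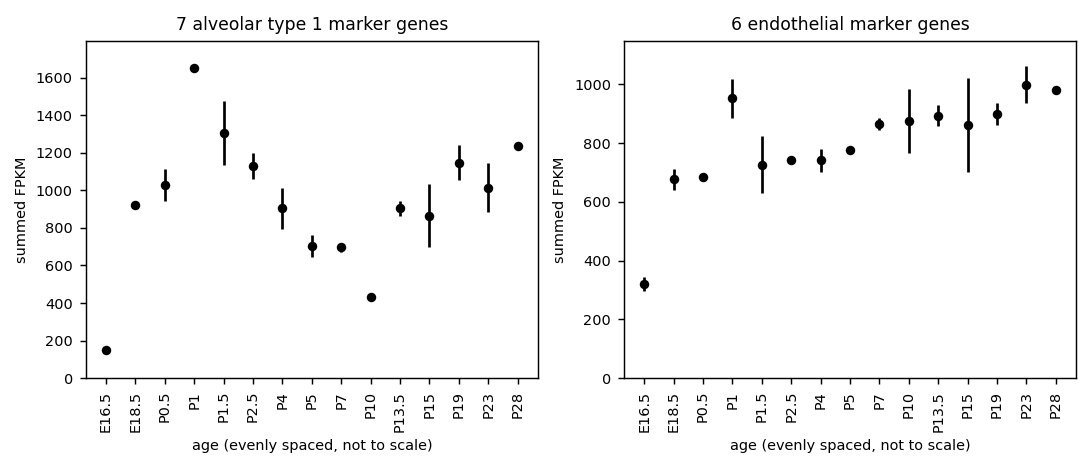
Summed FPKM (vertical axes, starting at 0) of 7 alveolar type 1 and 6 endothelial marker genes by age (horizontal axes, evenly spaced), with a line between the 2 animals of each age and a point at their median. The type 1 sum is 140 and 160 at E16.5, 1636 and 1664 at P1 and 421 and 445 at P10, and the endothelial sum has no low at P10 (766 and 985).

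The genes that fold, export and fasten type IV collagen were described from 7 lists. Counts called in a list are read beside the share of all genes called in that comparison. Across birth this share was 9.11% higher and 6.81% lower, and from postnatal saccular to early alveolar 0.527% and 0.937%. From early to late alveolar it was 3.89% and 7.47%, and from prenatal to late alveolar 12.7% and 18.3%. In lists this short, a count of 1 or 2 genes across birth lies near these shares. The prenatal group joins E16.5 with E18.5, so a change called across birth can lie between these ages. The list counts were not repeated with E18.5 alone. Of 17 genes that hydroxylate, glycosylate or chaperone the chains, 12 had values and were tested. Across birth 0 rose and 2 fell, Plod2, a lysyl hydroxylase (-0.98 ± 0.20, adjusted p = 0.00112 by limma), and P4ha1, a prolyl hydroxylase subunit (-1.001 ± 0.23, adjusted p = 0.00313). Between the early and late alveolar groups 0 rose and 4 fell: Fkbp10 (-1.10 ± 0.17, adjusted p = 5.7e-05), P4ha3 (-2.36 ± 0.49), Serpinh1, the collagen chaperone HSP47 (-0.75 ± 0.16, adjusted p = 0.00227), and Crtap (-1.01 ± 0.23). Against the prenatal group 6 of the 12 were lower in the late alveolar group and 1, Colgalt2, a collagen galactosyltransferase, was higher (1.44 ± 0.39, adjusted p = 0.00507). Many of these enzymes also serve the fibrillar collagens.

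Of 9 genes listed for export from the endoplasmic reticulum, 2 rose and 0 fell across birth, and neither of these is part of the export machinery. They were the transcription factor Creb3l2 (1.10 ± 0.18, adjusted p = 7.62e-05 by limma) and Sparc, a secreted protein that binds type IV collagen (0.89 ± 0.22, adjusted p = 0.00486). The export genes Mia3, Sec23a and Sar1b were not called across birth. Sparc rose from a prenatal median of 429 FPKM to 801 in the postnatal saccular and 1153 in the late alveolar group. Mia3, the receptor TANGO1 that loads collagen into transport carriers, was higher in the late alveolar than in the prenatal group (0.51 ± 0.13, adjusted p = 0.00225), while Sec23a (-1.60 ± 0.35) and Sar1b (-1.65 ± 0.50) were lower. Between the early and late alveolar groups 0 rose and Creb3l2 alone fell (-0.60 ± 0.14, adjusted p = 0.0044).

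Of 7 cross-linking genes, 2 rose and 1 fell across birth, where 9.11% of all genes rose and 6.81% fell. Loxl2, a lysyl oxidase-like enzyme that cross-links type IV collagen, rose (0.95 ± 0.24, adjusted p = 0.00744 by limma), as did Loxl1 (1.32 ± 0.38, adjusted p = 0.0149), and Lox fell by 2.24 ± 0.32 (adjusted p = 2.03e-05). Between the early and late alveolar groups 1 rose and 4 fell. Loxl2 went from a median of 110 FPKM to 33.6 (-1.69 ± 0.19, adjusted p = 5.38e-07), Pxdn, the peroxidasin that forms the sulfilimine bonds of the type IV network, from 51.3 to 36.6 (-0.51 ± 0.13, adjusted p = 0.0116), and Loxl3 (-0.89 ± 0.18) and Loxl1 (-0.96 ± 0.30) also fell. Tgm2, a transglutaminase, rose from 28.1 to 75.8 FPKM (1.36 ± 0.16, adjusted p = 9.32e-07).

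The partners of type IV collagen in the basement membrane did not follow 1 course. Of all genes 9.11% rose and 6.81% fell across birth, and 3.89% and 7.47% between the early and late alveolar groups. Of 11 laminin chains, 2 rose (Lamb2, 0.85 ± 0.14, and Lamb3, 0.75 ± 0.23) and 1 fell (Lama4, -0.51 ± 0.17) across birth, and 2 fell between the early and late alveolar groups, Lama5 (-0.90 ± 0.15, adjusted p = 0.00014 by limma) and Lamc1 (-0.53 ± 0.14, adjusted p = 0.011). Of 12 linkers and proteoglycans, 3 rose and 2 fell across birth, among them Egfl7, an endothelial secreted protein (1.31 ± 0.21), and Nid2, a nidogen that bridges laminin and type IV collagen (-0.99 ± 0.25). Between the early and late alveolar groups 5 of the 12 fell, with Nid1 (-0.68 ± 0.11, adjusted p = 7.32e-05) and Nid2 (-1.20 ± 0.20, adjusted p = 0.000135) in front, and Npnt, the nephronectin that binds integrin α8β1, rose (0.66 ± 0.20, adjusted p = 0.0255). Nid2 fell from a prenatal median of 35.0 FPKM to 6.14 in the late alveolar group, while Npnt rose from 87.5 to 323 FPKM.

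Of 14 receptor genes, 4 rose and 0 fell across birth, where 9.11% of all genes rose and 6.81% fell. Itga3, an integrin subunit for laminins (1.43 ± 0.23, adjusted p = 6.9e-05 by limma), stood ahead of Cd44, Itgb4 and Dag1. In the early alveolar group 2 rose and 0 fell: Ddr2, a collagen receptor kinase (0.75 ± 0.14, adjusted p = 0.00787), and Itga1, the subunit of the integrin that binds type IV collagen (0.74 ± 0.19, adjusted p = 0.0369). Itga1 went from a median of 52.0 FPKM in the postnatal saccular group to 88.9 in the early and 115 in the late alveolar group. At the late alveolar stage Itga8 (0.85 ± 0.19) and Itga3 (0.66 ± 0.18) rose and 0 fell. Of 9 proteases and inhibitors, 7 passed the filter. Timp2 (1.32 ± 0.19) and Mmp9, a gelatinase that cuts type IV collagen (1.43 ± 0.41), rose across birth. Mmp9 fell at the early alveolar stage (-1.48 ± 0.33, adjusted p = 0.0202 by limma). At the late alveolar stage Mmp14 (-1.19 ± 0.21) and Mmp2 (-0.62 ± 0.20) fell while Mmp3 (1.83 ± 0.41) and Timp3 (0.94 ± 0.29) rose. Mmp3 and Mmp9 were low: Mmp3 was at 0 in 18 of the 29 libraries, with a late alveolar median of 4.32 FPKM. Mmp9 was at 0 in 5 libraries, with medians of 0.478, 3.26, 0.663 and 0.950 FPKM in the 4 groups in order of age. Their changes are therefore uncertain.

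In the late alveolar step the count of genes that fell differed by list. It was 0 of 6 collagen genes, 0 of 14 receptor genes and 1 of 9 genes of the export list. It was 2 of 11 laminin, 2 of 7 protease and inhibitor, 4 of 12 chain-modifying, 4 of 7 cross-linking and 5 of 12 linker genes. Of all genes 7.47% fell, and 0 of 6 is near that share. The 6 fibroblast markers moved in the same step, with 4 lower, 1 higher (Pdgfra) and a median of -0.62, and their summed level ran from 812 to 1305 FPKM in the early and from 454 to 827 FPKM in the late alveolar group. None of the differences between the lists was tested, nor was the part of fibroblasts in them.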

How the data were processed

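RNA from laser-captured alveolar septa of 29 mice was made into libraries with a stranded total RNA kit that removes ribosomal RNA. The submitters' processing notes name STAR 2.5.1 (an aligner), Cufflinks 2.2.1 (which estimates FPKM) and the build mm10 for the deposited FPKM values. Their settings, the gene annotation and the sequencer are not given in the sources used here. Read depth is unknown. The design text names 14 time points and the labels 15 ages, and the labels were used. No test is stated for these data.

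The table holds 24486 lines for 22779 gene IDs, of which 22718 had a RefSeq symbol and 1226 stand on more than 1 line. Of repeated lines the one with the highest mean was used. Col4a1 has 2 lines. Genes that reached an FPKM of 1 in 4 or more libraries (14616) were tested on log2(FPKM + 1) in R 4.3.3, with limma 3.58.1 and a trended empirical Bayes prior, in 1 fit of 4 stage groups, with Benjamini-Hochberg adjustment over all genes tested and a threshold of 0.05. E18.5 against E16.5 used 15 age groups, and the age test a natural spline of age with 3 df, age being the log2 of days from conception and birth day 19. All adjusted p for single genes are from limma. Correlations used 100000 two-sided permutations, adjusted over 15 pairs. Summaries and plots were made in Python 3.11.15 with pandas 2.3.3, numpy 2.4.6, matplotlib 3.10.9 and scipy 1.17.1. The limma script was tested on simulated data.

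The members, gene lists and markers were chosen with earlier results of these data known. Genes named are the 6 members, the 3 genes most like each (mean FPKM of at least 5, no predicted genes or small RNAs) and, per list and comparison, up to 4 called genes with the smallest p and any called against the rest. Of 17 genes in the list of chain folding and modification, 5 are not analysed here. Alternatives were a pseudocount of 0.1, no filter or one at FPKM 5, median ratio scaling, quantile normalization, array quality weights, 15 age groups, only the 2 groups compared, the prenatal group reduced to E18.5, summed lines, postnatal libraries only, each library left out, and P10 pup a with P19 pups d and f left out. Sex as a covariate, and summed lines for the ratio, were added after the data were seen.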

Additional observations from a re-analysis of the deposited data

How the results depend on the processing

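No direction of a called collagen gene reversed in any alternative. From postnatal saccular to early alveolar, the count of genes called (1) became 2 with array quality weights (4.77% of all genes called) and 3 with 15 age groups (4.17%) or only the 2 groups compared (3.14%), and 0 to 1 with single libraries left out. The count from early to late alveolar (1) became 2 with 15 age groups (15.5% of all genes), that from prenatal to late alveolar (5) became 2 when the prenatal group was reduced to E18.5 (14.5%), and that for age (6) became 2 in postnatal libraries only (15.3%). The shares of all genes in the reported fits were 0.527% higher and 0.937% lower, 3.89% and 7.47%, 12.7% and 18.3%, and 30.7% for age. With single libraries left out, the counts were 3 to 4 across birth, 2 to 3 for E18.5 against E16.5, 1 to 1 from early to late alveolar, 4 to 5 from prenatal to late alveolar and 5 to 6 for age. The mean log2 ratio of the α3, α4 and α5 to the α1 and α2 genes was -2.81, -2.05, -3.04 and -2.49 in the 4 groups in order of age. As a difference of mean log2 values, which changes its scale by construction, it was -3.25 (prenatal), -2.55 (postnatal saccular) and -2.95 (late alveolar). With Col4a3 and Col4a4 alone above the line it was -3.99, -2.33 and -2.93, so that the prenatal group was then the lowest of the 4, below the early alveolar group at -3.36. With single libraries left out it ran from -2.94 to -2.72 prenatally, -2.08 to -2.01 in the postnatal saccular, -3.15 to -2.91 in the early alveolar and -2.54 to -2.43 in the late alveolar group. The causes were not tested where the construction does not give them. No paired analysis was possible because pup letters and embryo numbers are names within an age and pair no animals across ages. With 2 animals an age and unknown depth, levels as low as those of Col4a6 are the least certain.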
